A study of Homo sapiens with 6 samples.

Results

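The EPHA genes encode the A class of Eph receptors, a family of receptor tyrosine kinases at the cell surface. All 9 genes EPHA1 to EPHA8 and EPHA10 had a probe set on the arrays, among 14812 genes tested. The members were chosen by gene symbol in the platform annotation. Where a gene had several probe sets, the one with the highest mean over all 6 arrays was selected on its level, without regard to the groups, although each EPHA gene had only 1. Log2 levels came from total RNA of HuH7, a hepatoma cell line of human origin, in 3 arrays of cells given an EGOT gapmer and 3 of cells given a control gapmer. EGOT is a noncoding RNA of the ITPR1 locus, and gapmers are short oligonucleotides through which RNase H cuts a matching RNA. Every group, the controls included, was also given poly I:C, which imitates viral double-stranded RNA, and a plasmid for PKR, the kinase that senses such RNA. Each well received 50 pmol of gapmer, and RNA was taken 36 hours after transfection. The comparison therefore concerns 1 gapmer against EGOT in 1 cell line, with PKR and poly I:C always present, and the labels do not say whether arrays of a group came from separate cultures. P-values measure the spread between these arrays, which may be technical.

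The reagents that define the groups are shown by the target sequences that the labels give, in lower case throughout because no part of either was singled out.
EGOT gapmer: agagacacttagaaga
control gapmer: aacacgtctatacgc
No transcript or intron sequence of the EPHA genes was searched for these letters.

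Eph receptors bind ephrins, which are themselves held on the membrane of a neighbouring cell, so that signalling needs cell contact and can run into both cells. The A class mostly binds the ephrin-A ligands, which are anchored by a lipid, and the B class the ephrin-B ligands, which span the membrane. Contact with an ephrin clusters the receptors, starts kinase signalling to the cytoskeleton, and commonly ends in repulsion or retraction of the cell. EPHA2 is the member best known from epithelial cells and carcinomas, with EFNA1 as its main ligand, whereas EPHA3, EPHA4, EPHA5, EPHA6, EPHA7 and EPHA8 are known above all from the developing nervous system.

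EPHA5 was the member that fell with the EGOT gapmer. The control gapmer arrays read 7.33, 7.54 and 7.49 on the log2 scale, and the EGOT gapmer arrays read 6.25, 5.94 and 6.61. Every EGOT gapmer array lay below every control array, and the EGOT gapmer arrays were spread more widely, with replicate 2 lowest and replicate 3 highest. The means were 7.45 ± 0.111 and 6.27 ± 0.334 (SD, n = 3 each). They differed by -1.19 (log2, standard error 0.164), with a 95% interval from -1.57 to -0.80, leaving 0.439 of the level in the controls (limma adjusted p = 0.0142). Of the 14812 genes, EPHA5 had the log2 difference ranked 6 from the lowest. By a two-sided exact permutation test of its 6 values p was 0.1, the lowest that this number of arrays can reach. The adjusted p of EPHA5 stayed under 0.05 when any EGOT gapmer array was left out. It rose to 0.0594, 0.0684 and 0.0659 without control gapmer replicates 1, 2 and 3, while the log2 difference lay between -1.25 and -1.14. As RNA was taken from whole wells, fewer cells with EPHA5 RNA and less EPHA5 RNA per cell cannot be told apart.

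The remaining 8 EPHA genes did not pass the test in either direction. In total 1 of 9 members was called lower and 0 higher, where 3.21% of all genes were called lower and 5.2% higher (limma, adjusted p under 0.05). At an unadjusted p under 0.05, 3 members were lower and 0 higher, namely EPHA2, EPHA5 and EPHA6, where 8.79% of all genes were lower and 16.2% higher. The groups did not overlap in 3 members that were lower with the EGOT gapmer, EPHA2, EPHA5 and EPHA6, and in 1 that was higher, EPHA7. Over all genes the groups did not overlap in 11.5% that were lower and 20.2% that were higher. The median log2 difference was -0.06 over the 9 members and 0.04 over the 8 without EPHA5, and 0.04 over all genes. The 8 ran from -0.38 for EPHA6 to 0.24 for EPHA4, so no shift shared by the family was seen at this number of arrays.

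**Figure D1:**
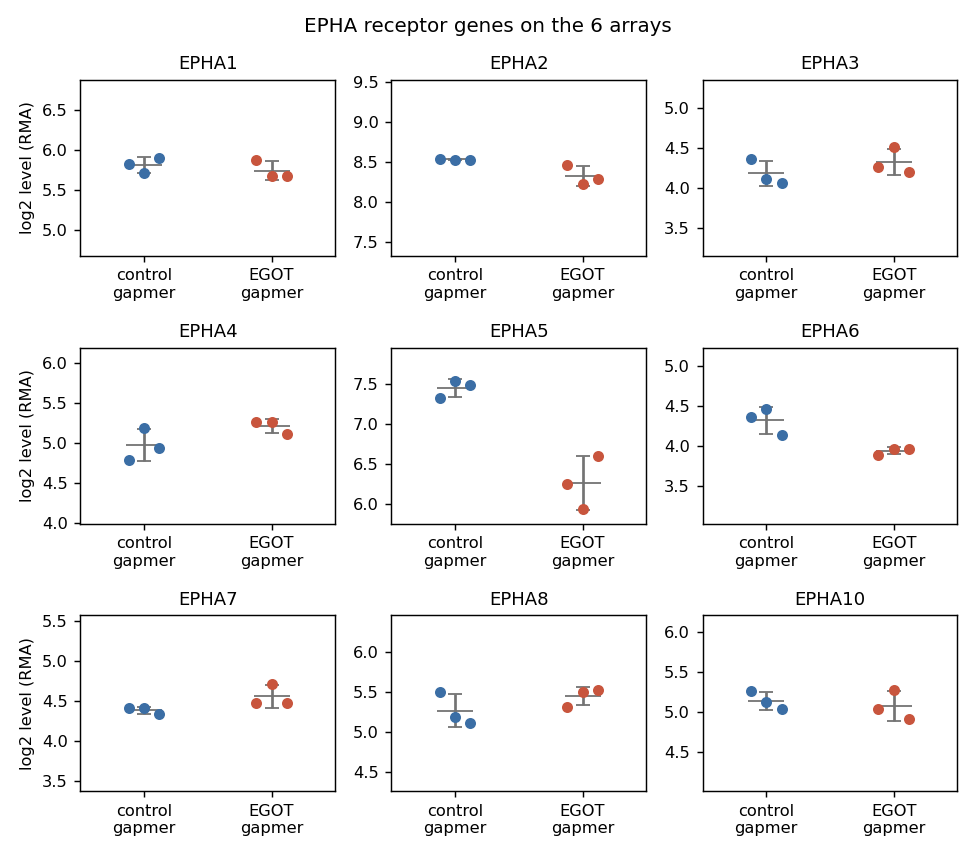
Log2 level (vertical axis, RMA) of each of the 9 EPHA genes on the 3 control gapmer arrays (blue) and the 3 EGOT gapmer arrays (red). Grey bars give the group mean and SD, the points of a group run from replicate 1 to 3, and every panel covers the same number of log2 units. EPHA5 alone shows a wide gap, from 7.33 for the lowest control to 6.61 for the highest EGOT gapmer array.

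EPHA2, the receptor typical of epithelial cells, had the tightest control values of the family. Its control gapmer arrays read 8.54, 8.52 and 8.53 on the log2 scale and its EGOT gapmer arrays 8.46, 8.22 and 8.29. All 3 EGOT gapmer arrays lay below the controls, replicate 1 by the least. The means differed by -0.21 (log2, standard error 0.0814), with a 95% interval from -0.40 to -0.02, and the difference did not pass (limma adjusted p = 0.170). The same difference passed with a variance trend and with the brighter genes tested alone (limma adjusted p = 0.0484 and 0.0485). In the other 12 alternatives its adjusted p was above 0.05. The EPHA2 probe set read above the median gene of every array and that of EPHA5 on all but EGOT gapmer replicate 2. The other 7 members were below it on all 6, where background compresses differences.

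EPHA6, a receptor of the nervous system, was the member with the next largest difference after EPHA5. Its log2 levels were 4.36, 4.46 and 4.14 with the control gapmer and 3.89, 3.97 and 3.96 with the EGOT gapmer. The groups did not overlap, and the control arrays were the more widely spread. The log2 difference was -0.38 with a 95% interval from -0.61 to -0.15 (limma adjusted p = 0.0563). EPHA6 passed after another quantile normalization, at -0.41 (limma adjusted p = 0.0497), and after cyclic loess, also at -0.41 (limma adjusted p = 0.0498). Its probe set was dim, at percentile 13.5 of the gene means, a level where background compresses folds.

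EPHA3, EPHA4, EPHA7 and EPHA8, receptors that guide axons and sort cells in development, had log2 differences above 0 that did not pass. EPHA4, which unlike most of its class also binds ephrin-B ligands, read 4.79, 5.18 and 4.94 with the control gapmer and 5.26, 5.27 and 5.11 with the EGOT gapmer. Its groups overlapped, since control replicate 2 lay above EGOT gapmer replicate 3, and its log2 difference was 0.24 (95% interval -0.02 to 0.51, limma adjusted p = 0.235). EPHA7 read 4.40, 4.41 and 4.33 against 4.47, 4.71 and 4.47. Its groups were apart by a narrow margin, with a log2 difference of 0.17 (95% interval -0.04 to 0.38, limma adjusted p = 0.282). EPHA8 read 5.50, 5.19 and 5.11 against 5.32, 5.50 and 5.53, and EPHA3 read 4.37, 4.12 and 4.07 against 4.27, 4.51 and 4.21. Both overlapped, with log2 differences of 0.18 for EPHA8 (95% interval -0.10 to 0.46) and 0.14 for EPHA3 (95% interval -0.13 to 0.42). In both, control replicate 1 was the highest control.

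EPHA1, an epithelial receptor and the founding member of the family, and EPHA10, whose kinase domain is regarded as inactive, had the smallest differences. EPHA1 read 5.83, 5.71 and 5.90 with the control gapmer and 5.88, 5.68 and 5.68 with the EGOT gapmer, a log2 difference of -0.07 (95% interval -0.28 to 0.14). EPHA10 read 5.26, 5.12 and 5.03 against 5.03, 5.27 and 4.91, a log2 difference of -0.06 (95% interval -0.33 to 0.20). The groups overlapped in both genes. The direction of EPHA10 turned when control gapmer replicate 1 or EGOT gapmer replicate 3 was left out. A fall as deep as that of EPHA5 lies outside the 95% interval of each of the other 8 members. For the 7 of them below the median gene on every array, background could have hidden part of such a fall.

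Among the ligands EFNA1, an ephrin-A that EPHA2 binds, rose with the EGOT gapmer. It read 6.95, 6.95 and 6.97 on the log2 scale with the control gapmer and 7.52, 7.55 and 7.61 with the EGOT gapmer. The groups were far apart relative to their spread, with SDs of 0.0108 and 0.0443 (n = 3 each). The rise was 0.60 on the log2 scale (standard error 0.0654), or 1.52-fold (limma adjusted p = 0.00945). Without control gapmer replicates 1, 2 and 3 its adjusted p was 0.0539, 0.0579 and 0.0563, at log2 differences between 0.60 and 0.61. EFNA2, another ephrin-A ligand, read 7.99, 7.94 and 7.89 against 8.19, 8.20 and 8.39. Its groups did not overlap, but its log2 difference of 0.32 (95% interval 0.12 to 0.51) did not pass (limma adjusted p = 0.0583). EFNA2 passed in 3 of 14 alternatives, with a variance trend, with array weights and with the brighter genes alone. Of the 5 ephrin-A genes 1 rose and 0 fell, where 5.2% of all genes were called higher and 3.21% lower. The median log2 difference of the 5 was 0.16, where all genes had 0.04. EFNA3 and EFNA4 were at 0.05 and 0.16 and EFNA5 at -0.03, none of which passed.

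Neither the B class receptors nor their ligands held a gene that passed (limma), where 3.21% of all genes were called lower and 5.2% higher. At an unadjusted p under 0.05 the count was 0 in both lists, where 8.79% of all genes were lower and 16.2% higher. Of 5 listed EPHB genes, which act in tissue boundaries and blood vessels, 4 were measured, and EPHB2 was not analysed here. Their median log2 difference was 0.08. EPHB4, a receptor of venous endothelium that epithelial cells also make, read 8.80, 8.80 and 8.87 with the control gapmer and 8.93, 8.91 and 8.96 with the EGOT gapmer. Those groups did not overlap, yet the log2 difference was only 0.11 (95% interval -0.04 to 0.26, limma adjusted p = 0.356). EPHB1 was at 0.06 (95% interval -0.11 to 0.22, limma adjusted p = 0.670). The 3 ephrin-B genes had a median log2 difference of -0.03, and every one was below the median gene of every array. EFNB1 was at 0.14 and EFNB2 at -0.03 (limma adjusted p = 0.618 and 0.923), and both signs turned in an alternative.

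**Figure D2:**
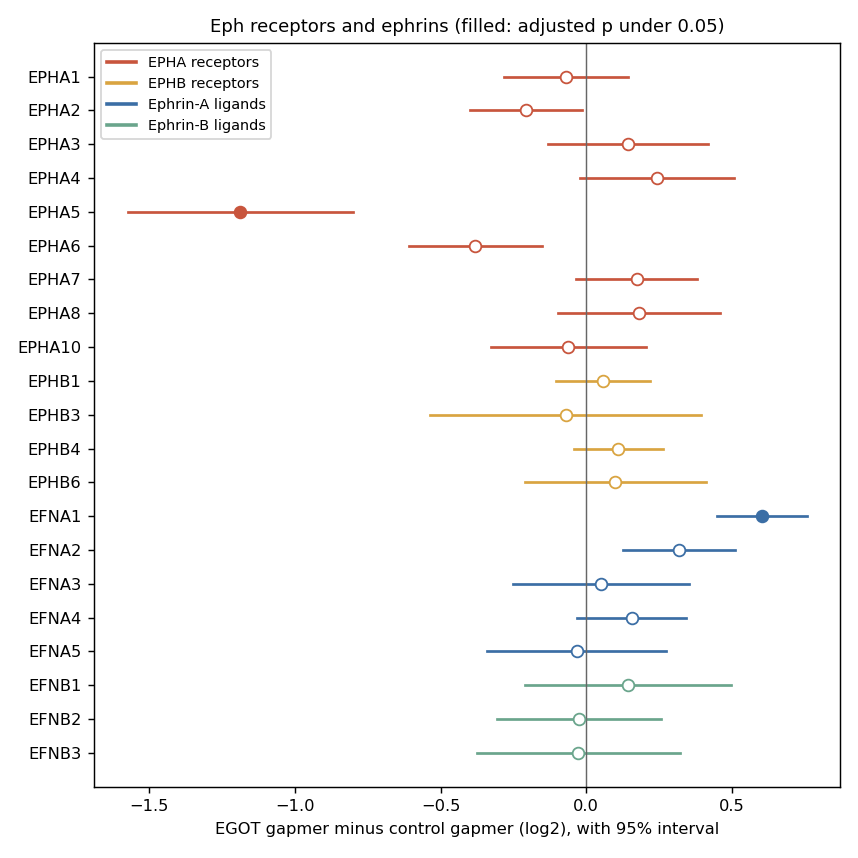
Log2 difference, EGOT gapmer minus control gapmer (horizontal axis), of the measured Eph receptor and ephrin genes, with limma's 95% interval as a line. Colours mark the 4 classes, and filled points passed an adjusted p of 0.05. EPHA5 at -1.19 and EFNA1 at 0.60 are the filled points.

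Effectors of Eph signalling inside the cell were split in direction. Of 37 listed genes 22 were measured, of which 2 rose and 3 fell, and the median log2 difference was -0.01. Over all genes 5.2% were called higher and 3.21% lower. Both SAM and PTB domain adaptors that bind Eph receptors fell, ANKS1A by 0.47 and ANKS1B by 0.51 on the log2 scale (limma adjusted p = 0.0319 and 0.0159). ANKS1B read 6.80, 6.94 and 6.78 with the control gapmer and 6.31, 6.33 and 6.36 with the EGOT gapmer, without overlap. ABL2, a cytoskeletal tyrosine kinase, fell by 0.37 (limma adjusted p = 0.0305), although the mean of its 2 probe sets differed by -0.17 and did not pass (limma adjusted p = 0.196). CHN1, a signalling protein that acts below EPHA4, rose by 0.39 (limma adjusted p = 0.0306). INPPL1, the phosphatase SHIP2, which binds EPHA2, was at the threshold with a rise of 0.41 (limma adjusted p = 0.0497). It did not pass in 11 of 14 alternatives, among them all 6 with an array left out. With 1 array left out, ANKS1A, ABL2 and CHN1 passed only without EGOT gapmer replicate 2, and ANKS1B without EGOT gapmer replicate 1 or 2.

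Of 6 listed proteases that shed ephrins or receptors 3 were measured. ADAM10, which cuts ephrin-A ligands off the cell once a receptor has bound, fell by 0.32 on the log2 scale (limma adjusted p = 0.0362). It passed in 0 of the 6 fits with an array left out. The membrane protease MMP14 differed by 0.12, which did not pass (limma adjusted p = 0.473). Among other receptor tyrosine kinases 32 were measured, with a median log2 difference of -0.07. Of these 3 fell and 0 rose, where 3.21% of all genes were called lower and 5.2% higher. They were EGFR, the epidermal growth factor receptor, by 0.69, IGF1R, the insulin-like growth factor receptor, by 0.57, and ROR1, a Wnt-binding receptor, by 0.45 (limma adjusted p = 0.0142, 0.0137 and 0.0262). ROR1 passed in 0 of the 6 fits with an array left out, IGF1R without EGOT gapmer replicate 1 or 2, and EGFR with any 1 EGOT gapmer array left out. EPHA5 thus was not the only receptor kinase that fell, and whether its fall differs from theirs was not tested.

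EPHA5 is a long gene, and long genes were lower in these arrays as a group. The 523 genes with a genomic span of at least 300 kb had a median log2 difference of -0.12, and 19.7% of them were called lower. For the 4924 genes under 10 kb the median was 0.07 and 0.873% were called lower. EPHA3, EPHA5 and EPHA6 are in the longest range, with spans of 374514, 350923 and 946939 bases. EPHA4 and EPHA7 are between 100 and 300 kb, where the median of 1731 genes was -0.08, and EPHA1, EPHA2, EPHA8 and EPHA10 are shorter. The long members did not move alike, since EPHA3, EPHA4 and EPHA7 had differences above 0 at low levels. Of 202 genes that were both at least 300 kb long and above the median level, 43.1% were called lower, and the median was -0.30. EPHA5, which earlier results of these data had already named as a fall, had the lowest difference among the 202. Another long gene, GPC6, with a span of 1191492 bases, was at -1.11. With the trend on span removed, EPHA5 was at -1.01 and still passed (limma adjusted p = 0.0283), and EFNA1, a short gene, was at 0.55 (limma adjusted p = 0.0197). EPHA6 was then at -0.15 (limma adjusted p = 0.407). ANKS1A, ANKS1B, ABL2, INPPL1, ADAM10 and ROR1 no longer passed, at adjusted p-values from 0.0839 for INPPL1 to 0.148 for ADAM10. The trend was fitted over all genes whatever their level, while long genes above the median level had the lower median. Whether gene length accounts for the fall of EPHA5 was not tested.

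**Figure D3:**
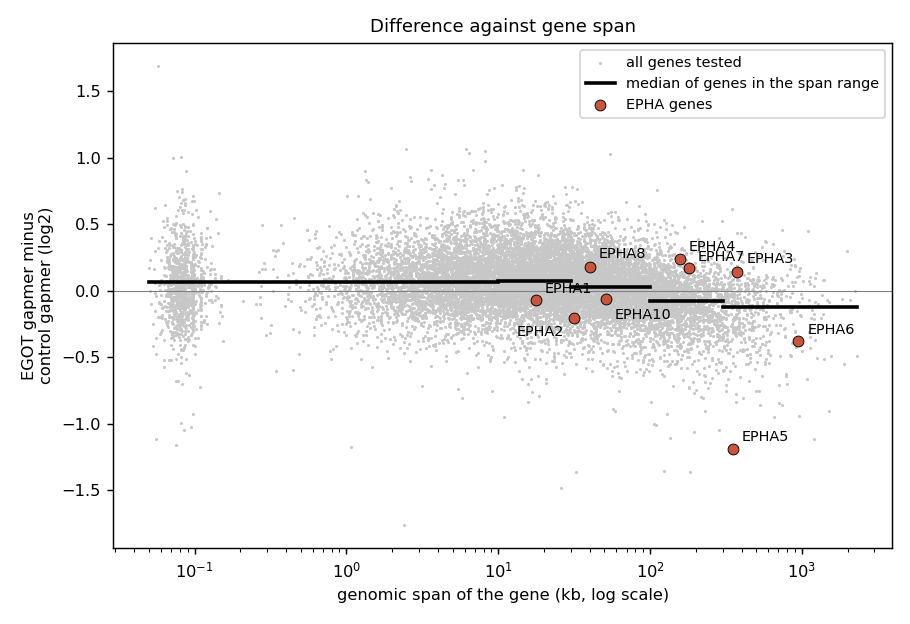
Log2 difference, EGOT gapmer minus control gapmer (vertical axis), against genomic span in kb (log axis) for all 14812 genes in grey, with the 9 EPHA genes in red. Black lines are the medians of the genes in 5 ranges of span, which pass from 0.07 under 10 kb to -0.12 from 300 kb, and EPHA5 at -1.19 lies far below its range's line.

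By the root mean square distance between deviations from the gene mean over the 6 arrays, the gene most like EPHA5 was GPC6, a glypican gene, at a distance of 0.132 log2 units. FRYL followed at 0.186, MIR4295 at 0.192, TFDP1 at 0.208 and SBF2 at 0.221. All 5 were called lower, with log2 differences from -1.11 for GPC6 to -0.86 for SBF2. With 6 arrays in 2 groups, such likeness mostly reflects a similar difference between the groups.

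EPHA5 shares its start region with an antisense gene, EPHA5-AS1, which was looked at after its values were seen. In RefSeq (GRCh38.p14) the outermost EPHA5 start and the EPHA5-AS1 start face opposite ways on chromosome 4, and the genes overlap there by 529 bases. EPHA5-AS1 read 8.23, 8.21 and 8.16 with the control gapmer and 8.14, 8.03 and 8.01 with the EGOT gapmer. All EGOT gapmer arrays were below the controls, but the log2 difference of -0.14 (95% interval -0.30 to 0.03) did not pass (limma adjusted p = 0.276). Within each array, EPHA5 minus EPHA5-AS1 was -0.90, -0.66 and -0.67 with the control gapmer and -1.88, -2.10 and -1.40 with the EGOT gapmer. The change of the mean log2 ratio was -1.05, given as a description with no test. Whether the probe sets read only their own strand is not given in the sources used here.

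The upstream sequences of the receptor that fell and of the ligand that rose are shown because these genes passed the test, and that of EPHA2, which did not pass, because it is a receptor of that ligand. Each is the 250 bases before an annotated start in RefSeq (GRCh38.p14), 5′ to 3′ on the gene's strand, with CG dinucleotides in capitals. For EPHA5 it is chr4:65670490-65670739 (minus strand, outermost start), for EPHA2 chr1:16156070-16156319 (minus strand), and for EFNA1 chr1:155127626-155127875 (plus strand).
EPHA5: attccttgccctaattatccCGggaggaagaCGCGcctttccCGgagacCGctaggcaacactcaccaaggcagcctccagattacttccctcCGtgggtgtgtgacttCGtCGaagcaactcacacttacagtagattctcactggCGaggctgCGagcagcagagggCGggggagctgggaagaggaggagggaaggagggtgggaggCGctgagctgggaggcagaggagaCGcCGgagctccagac
EPHA2: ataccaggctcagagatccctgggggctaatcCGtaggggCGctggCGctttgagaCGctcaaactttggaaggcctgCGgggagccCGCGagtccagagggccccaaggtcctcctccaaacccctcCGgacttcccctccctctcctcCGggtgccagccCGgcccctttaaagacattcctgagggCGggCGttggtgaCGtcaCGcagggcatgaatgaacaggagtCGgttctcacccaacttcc
EFNA1: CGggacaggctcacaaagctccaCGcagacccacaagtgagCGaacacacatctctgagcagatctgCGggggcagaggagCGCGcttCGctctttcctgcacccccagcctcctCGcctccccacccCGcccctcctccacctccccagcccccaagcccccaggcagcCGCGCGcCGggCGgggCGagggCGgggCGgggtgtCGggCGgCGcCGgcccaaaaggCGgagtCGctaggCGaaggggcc
These stretches hold 14 CG dinucleotides in EPHA5, 15 in EPHA2 and 24 in EFNA1, at a GC content of 61.2%, 63.2% and 73.2%.

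Across the family, promoter windows of 300 bases (250 before to 50 after a start) were found for 8 of the 9 genes, 13 windows in all. Their median held 21 CG dinucleotides at 63.3% GC, against 14 and 58.7% over all 35116 windows. The spread was wide, from 51 in EPHA8 to 1 in the inner window of EPHA6. The core of the interferon response motif, 2 copies of GAAA parted by any 2 bases and searched on both strands, was present in 1 of the 13 EPHA windows, the outer one of EPHA4, and in 3.57% of all windows. The letters TATAAA, also searched on both strands, were in 1 of the 13, a window of EPHA7, and in 11.5% of all windows. EPHA5, EPHA2 and EFNA1 held neither in these windows.

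The targeted transcript and the cell identity were checked over the same arrays. EGOT fell from 6.29, 6.79 and 6.71 to 4.91, 4.90 and 4.69, a log2 difference of -1.76 (standard error 0.142, limma adjusted p = 0.0076). Between arrays the correlation over all probe sets was 0.985 to 0.992, and array medians ran from 5.08 to 5.23, the highest in EGOT gapmer replicate 2. Hepatocyte markers were bright, with list means of 12.2 on every array over 7 of 10 genes, including ALB at 13.7 and AFP at 13.3 in the controls. Of these 7, APOA1 rose by 0.36 (limma adjusted p = 0.0406). APOB and TTR were lower without overlap, at -0.18 and -0.13, and did not pass (limma adjusted p = 0.124 and 0.274). Of 6 endothelial, 6 fibroblast and 6 neuronal markers 3, 2 and 2 were measured. Of the measured ones 0 passed (limma), where 3.21% of all genes were called lower and 5.2% higher. Both neuronal genes, MAP2 and SYT1, were lower at an unadjusted p under 0.05, as were 8.79% of all genes, and both are over 300 kb long, the range that was lower as a group. Of 8 leukocyte markers 4 were measured, and their list mean was 6.896 to 6.995 in the controls and 7.34 to 7.49 with the EGOT gapmer. CD68 and LYZ rose by 1.06 and 0.57 while CD2 and CD14 did not pass. PTPRC, the pan-leukocyte marker, was not analysed here. The part of these genes in the EPHA results was not tested.

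**Figure D4:**
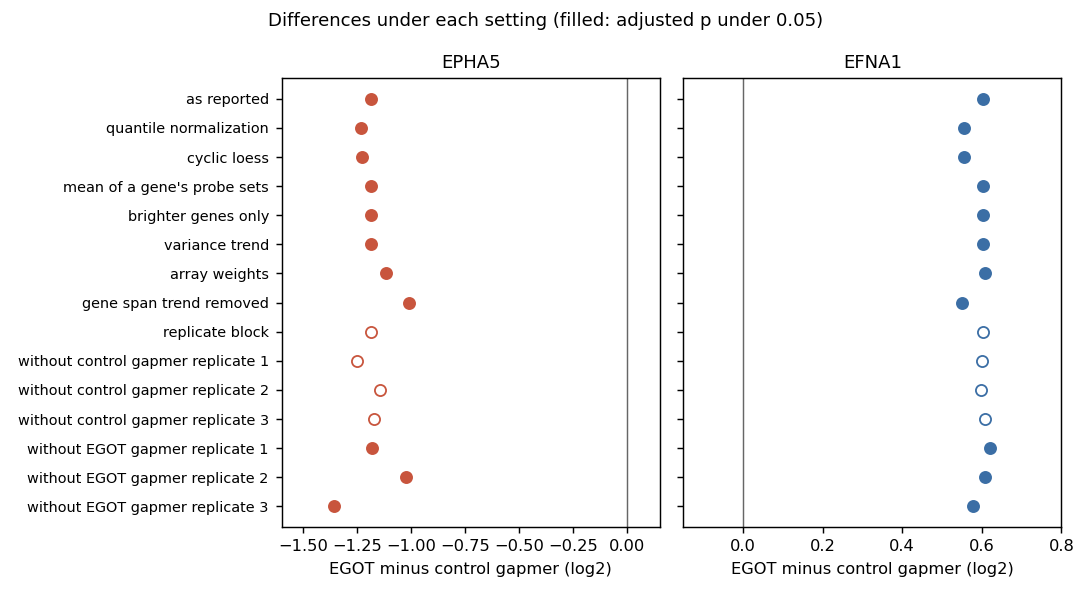
Log2 difference, EGOT gapmer minus control gapmer (horizontal axes), of EPHA5 and EFNA1 as reported and under 14 alternatives. Filled points passed an adjusted p of 0.05, and open ones are the replicate block and the 3 fits without a control gapmer array. EPHA5 stays between -1.36 and -1.01 and EFNA1 between 0.55 and 0.62.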

How the data were processed

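The values the authors deposited are log2 levels from RMA, per the submitters' processing notes. This method corrects background, normalizes quantiles and summarises probes. The sources used here give neither its version nor any filter. A change in total RNA per cell would not be seen. Of 44629 probe sets 15835 had 1 gene symbol, from GEO's platform annotation and the RefSeq gene table (GRCh38.p14), and the rest entered only the array medians and correlations and the scaling alternatives. Groups were compared over 14812 genes with limma 3.58.1 in R 4.3.3 (lmFit, eBayes, two-sided, Benjamini-Hochberg over all genes, threshold 0.05), tested on simulated data first. Single values were tested with an exact permutation test over 20 assignments. The members, gene lists and tests were chosen with earlier results of these data known. Named are all EPHA genes, members of the partner lists that passed, the 2 of each partner list with the smallest p, EGOT and the 5 genes most like EPHA5. EPHA5-AS1, the other ephrin-A genes and marker genes were named after their values were seen. Alternatives changed the scaling, probe sets, filter, variance model, span trend, replicate block and arrays. Gene spans serve only to compare genes. Precision is limited by 3 arrays per group.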

Additional observations from a re-analysis of the deposited data

How the results depend on the processing

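Besides 1 lower EPHA gene as reported, 2 were called lower after quantile normalization, cyclic loess (EPHA5 and EPHA6 in both), with a variance trend and with the brighter genes only (EPHA5 and EPHA2, the 2 EPHA genes left to test), and 0 to 1 with an array left out. In those fits 4.55%, 4.57%, 5.73% and 11.6% of all genes tested were called lower, in the order named, against 3.21% as reported. With an array left out the share of all genes called lower ran from 0.0473% to 1.74%. The count of higher EPHA genes was 0 in every alternative run, where the share of all genes called higher ran from 0% to 22.8%. The 4 lower and 3 higher EPHB, ephrin and effector genes (37 measured) became 7 and 5 of 25 measured with the brighter genes only. In that fit 11.6% of all genes tested were called lower and 22.8% higher. With a variance trend the higher count became 7 of 37, where 11.2% of all genes were called higher. With the span trend removed the lower count was 0, where 1.53% of all genes were called lower. With an array left out the lower count ran from 0 to 3 and the higher from 0 to 2. The shares of all genes in those fits ran from 0.0473% to 1.74% lower and from 0.0135% to 2.63% higher. Over all genes, 475 lower and 770 higher calls became 859 and 1688 with the brighter genes only, where 7406 genes were tested. They became 849 and 1664 with a variance trend, and 226 and 419 with the span trend removed. With an array left out they ran from 7 to 258 and from 2 to 389. The share of calls that were higher was 61.8% as deposited, 50.2% after quantile normalization and 48.8% after cyclic loess. With an array left out it ran from 22.2% (control gapmer replicate 2) to 67.2% (EGOT gapmer replicate 1), and it was 27.6% and 38.2% when control gapmer replicate 1 or 3 was dropped.

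Deviations from the group mean correlated at -0.0307, -0.054 and 0.0394 between same-numbered arrays, and from -0.078 to 0.0998 between the others. No pairing by replicate number was seen, but such correlations cannot show that same-numbered arrays were handled apart. With the replicate block no gene of any list passed, and the counts were 0 for EPHA, partner and all genes (limma, against 1249 lower and 2189 higher at an unadjusted p under 0.05), with EPHA5 at -1.19 (adjusted p = 0.0634) and EGOT at -1.76 (adjusted p = 0.0543). EPHA5 ran from -1.36 to -1.02 and EGOT from -1.92 to -1.67 with an array left out. The genes that turned sign had not passed. EPHA10 ran from -0.16 to 0.0195 with an array left out, at 0.0017 without control gapmer replicate 1 and highest without EGOT gapmer replicate 3. EFNB2 ran from -0.12 to 0.0838, above 0 without control gapmer replicate 1 or EGOT gapmer replicate 2, and was at 0.0077 with array weights. EFNB1 ran from -0.0036, without EGOT gapmer replicate 2, to 0.25. The cause of these changes was not tested. Dim probe sets, such as those of 7 EPHA genes, limit what could be seen.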
